A study of Homo sapiens with 12 samples.

Results

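The globin genes described here are the 8 genes HBZ, HBA1, HBA2, HBE1, HBG1, HBG2, HBD and HBB, which encode the protein chains of haemoglobin. Their probes on an Illumina BeadChip were those whose platform annotation gives 1 of these symbols and that were detected (p under 0.05) on every one of the 3 arrays in 1 or more groups. All 8 genes were read in this way, of 10208 genes with such a probe, and all 9 probes that carry such a symbol passed, of 17625 passing probes and 47314 in all. Each was detected on all 12 arrays, and HBA2 had 2 probes, called the brighter and the dimmer HBA2 probe below.

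The RNA came from K562, a human erythroleukaemic line from chronic myeloid leukaemia that carries the BCR-ABL1 fusion kinase and already expresses globin genes. The cells were exposed, in RPMI medium with 0.1% serum, to 100 nM dasatinib, a kinase inhibitor that acts on ABL and SRC family members, for 4 h, 8 h or 24 h, or to 0.2% DMSO, the vehicle, for 24 h, with 3 arrays in each of the 4 groups. All groups thus shared the low serum, and no untreated or early vehicle group was analysed here, so for the 4 h and 8 h groups drug and duration of low serum cannot be told apart. Nothing in the labels tells if a group's arrays stem from separate cultures, so p-values reflect no more than the spread among these arrays, and a single cell line stands behind every value.

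Haemoglobin is a tetramer of alpha-like and beta-like chains around haem. The alpha-like genes lie on chromosome 16, with the embryonic zeta gene HBZ followed by HBA2 and HBA1, and the beta-like genes on chromosome 11, with the embryonic epsilon gene HBE1, the fetal gamma genes HBG2 and HBG1 and the adult delta and beta genes HBD and HBB. During development their use shifts from embryonic to fetal to adult chains under the control of distant enhancers and of factors such as GATA1 and KLF1. K562 cells are known for embryonic and fetal haemoglobin, with little or no beta globin, and for making more haemoglobin when pushed to differentiate.

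Among the 8 genes, only HBD had an entry in the promoter table used here, from RefSeq with the build GRCh38.p14. Its upstream 250 bases, on the minus strand at chr11:5234484-5234733, are shown because HBD was called higher at all 3 dasatinib times. Capitals mark, in order, the letters CCAAT, then GATAA on the opposite strand (read here as its reverse complement) and ATAAAA.
HBD promoter: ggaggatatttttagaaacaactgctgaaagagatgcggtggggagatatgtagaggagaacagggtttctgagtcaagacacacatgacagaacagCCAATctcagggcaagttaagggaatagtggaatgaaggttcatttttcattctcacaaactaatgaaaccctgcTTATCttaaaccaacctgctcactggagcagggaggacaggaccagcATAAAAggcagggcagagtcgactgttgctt
The CCAAT letters lay 153 to 149 bases before the annotated start, those of GATAA 78 to 74 bases and those of ATAAAA 31 to 26 bases before it. GATAA holds the core letters that GATA1 recognises, and CACCC, which KLF1 recognises, had no match on either strand of this window. Of 35116 promoter windows of 250 bases, 32% held CCAAT on either strand, 20.4% GATAA, 54.7% CACCC and 14.8% ATAAAA. The matches describe letters alone, and ATAAAA was added after the sequence had been seen.

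The median signal per array was 134 to 160 intensity units, 17175 to 18927 probes were detected per array, and within groups Pearson's r between arrays was 0.989 to 0.992 over passing probes, which are not independent replicates. Levels are log2 signals after background correction and quantile normalization, and changes are log2 fold changes with the standard error (SE) of a limma fit over all 12 arrays. A probe was called at a Benjamini-Hochberg adjusted p under 0.05 over all 17625 passing probes. In RNA from bulk cultures, a change in the share of cells that express a globin and a change in RNA per cell cannot be told apart.

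Against the vehicle, globin probes moved only upward among those called, and the gamma genes and the brighter HBA2 probe were not called at any time. At 4 h, 3 of 9 probes were higher, 0 lower and 6 not called, where 7.97% of all passing probes were called in either direction and 3.5% as higher. At 8 h, 6 were higher, 0 lower and 3 not called, against 24.7% called of all probes and 12.3% higher. At 24 h the counts were again 6, 0 and 3, against 47.8% called and 23% higher. The median change of the 9 probes was 0.26 at 4 h, 0.70 at 8 h and 0.72 at 24 h, where the median over all passing probes was 0.01, 0.01 and -0.01. By the moderated F test across the 4 groups, 6 of 9 globin probes were called, with 50.1% of all probes.

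Between dasatinib times, called steps of the alpha-like members against the group before lay no later than 8 h, and those of HBE1 and HBD both before and after it. Of the 9 probes, 5 (HBZ, HBA1, the dimmer HBA2 probe, HBE1 and HBD) were higher at 8 h than at 4 h, where 7.46% of all passing probes were called and 3.84% as higher. From 8 h to 24 h 3 were higher, HBE1, HBB and HBD, where 30.7% were called and 14.6% as higher, and the 24 h group against the 4 h group gave 5 higher, where 39.2% were called and 18.7% as higher. No globin probe was called lower in any of the 6 comparisons, and comparisons that share a group are not independent of each other.

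**Figure D1:**
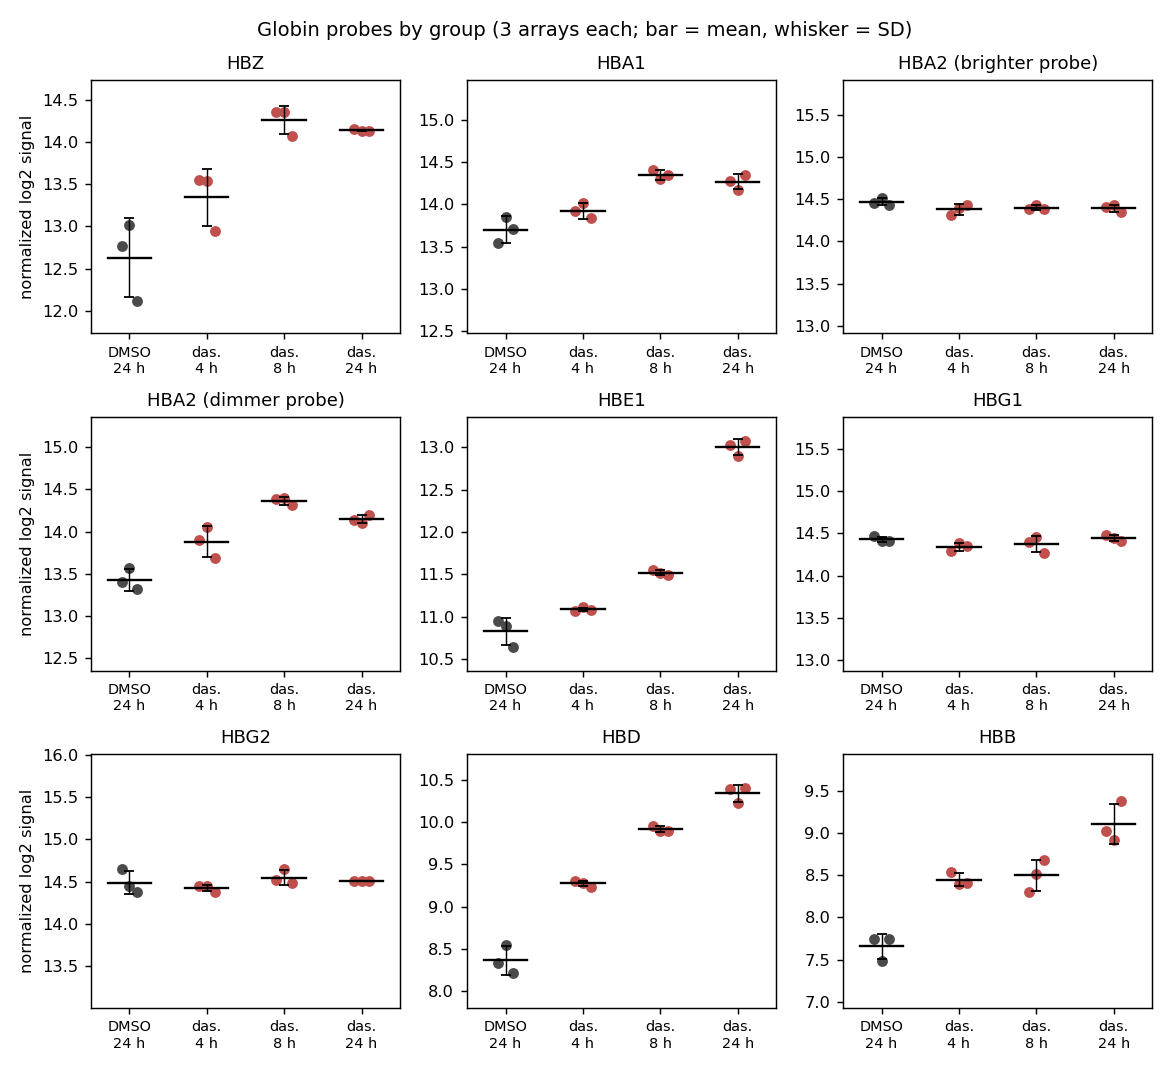
Normalized log2 signal of the 9 globin probes (1 panel each, every vertical axis with its own range) in DMSO 24 h and dasatinib 4, 8 and 24 h. Points are the 3 arrays of a group, the bar is their mean and the whisker their SD. HBE1 steps up at 24 h from a mean of 11.52 at 8 h to 13.00, HBZ reaches its highest mean at 8 h, and HBG1, HBG2 and the brighter HBA2 probe stay within 14.27 to 14.64 on all arrays.

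The embryonic zeta gene HBZ rose by 8 h and stood at a like level at 24 h. Its normalized log2 levels were 12.77, 13.01 and 12.11 in DMSO and 13.54, 13.54 and 12.95 at 4 h. They were 14.36, 14.35 and 14.07 at 8 h and 14.15, 14.13 and 14.13 at 24 h. All arrays at 8 h and 24 h lay above all DMSO arrays, while 1 array at 4 h lay below the highest DMSO array. The change against DMSO was 1.63 at 8 h (SE 0.22, adjusted p = 0.000216), which is 3.09-fold, and 1.50 at 24 h (SE 0.22, adjusted p = 0.000117).

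At 4 h HBZ gave 0.71 (SE 0.22, adjusted p = 0.0686). It was called there without DMSO array B (0.91, adjusted p = 0.0352), without array C of the 4 h group (0.91, adjusted p = 0.0332) and without background correction (adjusted p = 0.00986). Without DMSO array C it was 0.46 (adjusted p = 0.221), and the other arrays left out gave no call. Between 4 h and 8 h HBZ rose by 0.92 (adjusted p = 0.0240). That call was lost when array C at 4 h (adjusted p = 0.0926), array A at 8 h (0.0793) or array B at 8 h (0.0822) was left out. It was also lost without the detection filter (0.0568). The step from 8 h to 24 h was -0.12 (95% interval -0.60 to 0.35, adjusted p = 0.704), so of the neighbouring groups only 4 h and 8 h differed by a call. The DMSO arrays of HBZ had an SD of 0.47, against 0.01 at 24 h.

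The adult alpha genes HBA1 and HBA2, whose coding sequences are nearly identical, gave 3 probes that did not move alike. HBA1 was at 13.54, 13.86 and 13.71 in DMSO, 13.92, 14.02 and 13.83 at 4 h, 14.41, 14.30 and 14.34 at 8 h, and 14.28, 14.17 and 14.35 at 24 h. The dimmer HBA2 probe was at 13.40, 13.57 and 13.32 in DMSO, 13.90, 14.05 and 13.69 at 4 h, 14.38, 14.39 and 14.31 at 8 h, and 14.14, 14.10 and 14.20 at 24 h. For both probes all arrays at 8 h and 24 h lay above all DMSO arrays. HBA1 rose by 0.64 at 8 h (SE 0.11, adjusted p = 0.00104) and by 0.57 at 24 h (SE 0.11, adjusted p = 0.000956), and gave 0.22 at 4 h (adjusted p = 0.268). The dimmer HBA2 probe rose by 0.45 at 4 h (SE 0.11, adjusted p = 0.0305), by 0.93 at 8 h (adjusted p = 0.00011) and by 0.72 at 24 h (adjusted p = 0.000231).

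The brighter HBA2 probe was at 14.44 to 14.51 in DMSO, 14.31 to 14.43 at 4 h, 14.38 to 14.43 at 8 h and 14.35 to 14.43 at 24 h. Its arrays at each dasatinib time lay below all DMSO arrays, by changes of -0.09, -0.07 and -0.08 that were not called (adjusted p = 0.634, 0.623 and 0.507). The 95% interval at 24 h ran from -0.26 to 0.11. Whether each probe tells HBA1 from HBA2 was not tested, so the values are those of probes and not of separate genes.

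The calls of the alpha probes at 4 h and between times rested on few arrays. The 4 h call of the dimmer HBA2 probe disappeared with DMSO array A (adjusted p = 0.0858), DMSO array C (0.114), 4 h array A (0.0792) or 4 h array B (0.108) left out. It also disappeared with median scaling (0.352) and without the detection filter (0.0511). At 8 h against 4 h HBA1 rose by 0.42 (adjusted p = 0.0341) and the dimmer HBA2 probe by 0.48 (adjusted p = 0.0230). The HBA1 step was lost with any of the 8 h arrays left out (adjusted p = 0.106 without A, 0.0764 without B, 0.0870 without C), without 4 h array A (0.0711) or C (0.122), and when 24 h array A was dropped (0.0547). It was also lost with median scaling (0.354) and without the detection filter (0.0548). The HBA2 step was lost without 8 h array A (0.0705), B (0.0791) or C (0.0531) and without 4 h array C (0.0963), and with median scaling (0.272).

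The embryonic epsilon gene HBE1 showed the largest change of the 9 probes at 24 h, and most of it came between 8 h and 24 h. Its levels were 10.94, 10.89 and 10.64 in DMSO, 11.07, 11.11 and 11.08 at 4 h, 11.55, 11.52 and 11.49 at 8 h, and 13.03, 12.90 and 13.08 at 24 h. Each group lay above the one before it with no overlap. In deposited signal, HBE1 went from 2005 to 2274 intensity units in DMSO to 7112 to 9333 at 24 h. The change was 0.70 at 8 h (SE 0.10, adjusted p = 0.00047) and 2.18 at 24 h (SE 0.10, adjusted p = 1.71e-08), or 4.52-fold. At 4 h it was 0.26 (SE 0.10, adjusted p = 0.166). The step from 8 h to 24 h was 1.48 (adjusted p = 1.81e-06), and that from 4 h to 8 h was 0.44 (adjusted p = 0.0245).

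The smaller steps of HBE1 depended on arrays and scaling. The call from 4 h to 8 h was lost with any single array of either group left out (adjusted p = 0.0618, 0.0571 and 0.0691 without 4 h array A, B or C, and 0.0797, 0.0735 and 0.0590 without 8 h array A, B or C). With median scaling in place of quantile normalization the 8 h change was 0.41 (adjusted p = 0.160), and the step from 4 h to 8 h was lost (0.557). In the authors' deposited value table the 4 h change was called (adjusted p = 0.0459).

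The fetal gamma genes HBG1 and HBG2, neighbours with nearly identical products, showed no called change in any comparison. HBG1 lay between 14.41 and 14.46 in DMSO, 14.29 and 14.39 at 4 h, 14.27 and 14.45 at 8 h, and 14.41 and 14.48 at 24 h. HBG2 lay between 14.38 and 14.64 in DMSO, 14.38 and 14.45 at 4 h, 14.48 and 14.64 at 8 h, and was at 14.51 on all 3 arrays at 24 h. At 24 h the groups overlapped for both. The changes at 24 h were 0.02 for HBG1 (SE 0.09, 95% interval -0.18 to 0.22, adjusted p = 0.882) and 0.02 for HBG2 (SE 0.10, 95% interval -0.20 to 0.24, adjusted p = 0.888). A p that misses the threshold does not show equal levels, and whether the 2 probes tell HBG1 from HBG2 was not tested.

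HBD, the delta gene, whose chain forms the minor adult haemoglobin, was higher at each later time. Its levels were 8.33, 8.55 and 8.21 in DMSO, 9.31, 9.28 and 9.24 at 4 h, 9.96, 9.90 and 9.90 at 8 h, and 10.39, 10.23 and 10.40 at 24 h. No 2 groups overlapped. The change was 0.91 at 4 h (SE 0.11, adjusted p = 0.000241), 1.55 at 8 h (SE 0.11, adjusted p = 1.61e-06) and 1.97 at 24 h (SE 0.11, adjusted p = 4.93e-08), the last being 3.93-fold. The steps from 4 h to 8 h, 0.64 (adjusted p = 0.00398), and from 8 h to 24 h, 0.42 (adjusted p = 0.0102), were also called, although with median scaling neither passed (adjusted p = 0.203 and 0.0972).

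HBB, the major adult beta gene, had the weakest signal of the 9 probes and rose in 2 steps, by 4 h and after 8 h. Its levels were 7.74, 7.49 and 7.74 in DMSO, 8.54, 8.39 and 8.41 at 4 h, 8.30, 8.51 and 8.68 at 8 h, and 9.02, 8.91 and 9.37 at 24 h. The 4 h and 8 h arrays overlapped, and all other pairs of groups were apart. The change was 0.79 at 4 h (SE 0.14, adjusted p = 0.0048), 0.84 at 8 h (adjusted p = 0.00111) and 1.45 at 24 h (SE 0.14, adjusted p = 5.48e-06), or 2.72-fold. From 4 h to 8 h it was 0.05 (95% interval -0.26 to 0.36, adjusted p = 0.872), and from 8 h to 24 h it was 0.61 (adjusted p = 0.00684). In the authors' deposited value table the 24 h change was 0.78, and with median scaling the 4 h call was lost (adjusted p = 0.0616).

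**Figure D2:**
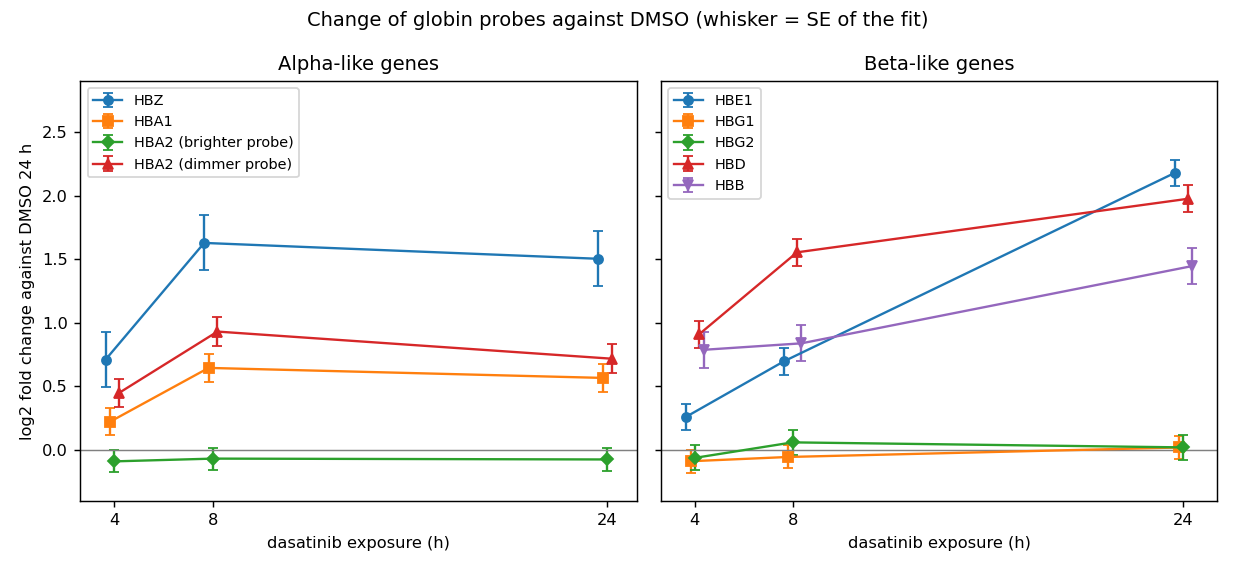
Log2 fold change of each globin probe against DMSO 24 h (vertical axis) by dasatinib exposure in hours (horizontal axis, points shifted slightly sideways), with alpha-like genes on the left and beta-like genes on the right. Whiskers are the SE of the limma fit. HBZ and both rising alpha probes are highest at 8 h, HBE1 is at 0.26, 0.70 and 2.18, HBD at 0.91, 1.55 and 1.97, and the gamma genes lie near 0. All 3 points of a probe share the same DMSO arrays.

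The probes that were not called were also those with the strongest signals. Ranked by mean signal over the 12 arrays among all 47314 probes, HBG2 was at 50, the brighter HBA2 probe at 96 and HBG1 at 106, followed by HBA1 at 220, the dimmer HBA2 probe at 243, HBZ at 322, HBE1 at 1280, HBD at 4362 and HBB at 6693. As a share of the highest signal on the same array, HBG2 ranged from 74.7% to 89.2%, the brighter HBA2 probe from 70.6% to 85% and HBG1 from 64% to 81%. HBZ went from a low of 21.2% to a high of 75%, HBE1 from 6.28% to 29.4%, and HBD and HBB did not exceed 4.75% and 2.48%. A rank of signal depends on each probe's own sequence and does not order the transcripts.

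Changes of any kind were small among probes of such brightness. Of passing probes at signal ranks 1 to 50, 4% were called at 24 h, with a median absolute log2 change of 0.045, and at ranks 51 to 150 the figures were 2% and 0.053. At ranks 151 to 500 they were 28% and 0.159, at ranks 501 to 2000 56.7% and 0.351, and beyond rank 2000 47.8% and 0.401. These rank bins were chosen after the values were seen. The array maximum was 25501 to 31796 intensity units, and whether signals near it are compressed was not tested, so the values of the gamma genes and of the brighter HBA2 probe measure the array's reading and set no limit on the change of the transcripts. The rising alpha-like probes came into the same range. At 8 h HBZ ranked 126 to 232 on its arrays, HBA1 101 to 154 and the dimmer HBA2 probe 108 to 146, so their levels from 8 h on, and the steps from 8 h to 24 h, are open to the same untested limit.

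**Figure D3:**
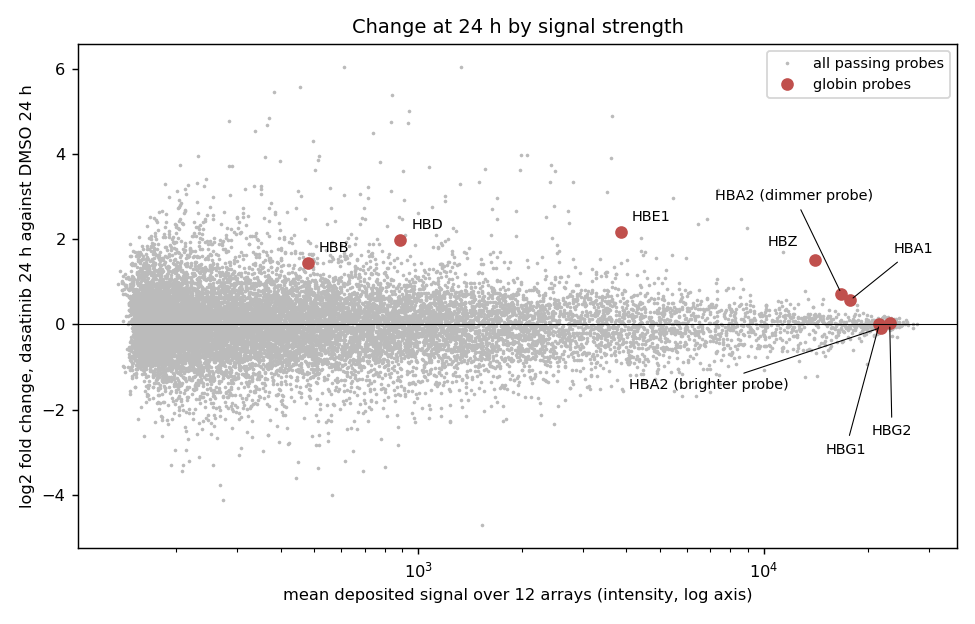
Log2 fold change at 24 h against DMSO 24 h (vertical axis) against mean deposited signal over 12 arrays (horizontal log axis, intensity units) for all 17625 passing probes in grey and the 9 globin probes in red. HBB, HBD, HBE1 and HBZ lie at 1.45 to 2.18, and HBG1, HBG2 and the brighter HBA2 probe lie near 0 at the right edge, where the spread of all probes is narrow.

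The difference in change between globin genes was taken within each array, as 1 log2 level minus another, over 6 pairs in which the brighter HBA2 probe stood for alpha globin and HBG2 for gamma globin. With 3 arrays against 3 the exact two-sided permutation test cannot go below 0.1, and each of the 6 pairs gave p = 0.1, also after adjustment over the 6. HBZ minus the brighter HBA2 probe went from a mean of -1.84 in DMSO (-2.32 to -1.50) to -0.26 at 24 h (-0.30 to -0.21), a difference of 1.58 (SE 0.25). That HBA2 probe changed by -0.08 at 24 h, while HBA1 rose by 0.57 and the dimmer HBA2 probe by 0.72. The difference against either of those, which would be smaller, was not taken. HBE1 minus gamma globin differed by 2.16 (SE 0.08), HBD minus gamma globin by 1.95 (SE 0.13), HBB minus gamma globin by 1.43 (SE 0.17), and HBZ minus gamma globin by 1.48 (SE 0.24). In all 6 pairs the 24 h arrays did not overlap those of DMSO, which restates the exact p of 0.1 and is no further result. The groups were closest for HBD minus HBE1, with a DMSO low of -2.61 and a 24 h high of -2.64. The share of other probe pairs without overlap was not taken, and 47.8% of all passing probes were called at 24 h. As 5 of the pairs rest on the brightest probes, the brightness values above hold for them too.

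The pair HBD and HBE1, both well below the array maximum, moved at different times. HBD minus HBE1 was -2.61, -2.34 and -2.43 in DMSO, -1.76, -1.83 and -1.84 at 4 h, -1.60, -1.62 and -1.60 at 8 h, and -2.64, -2.67 and -2.68 at 24 h. The difference thus lay above DMSO on all arrays at 4 h and 8 h and below it at 24 h. At 24 h it was -0.20 against DMSO (SE 0.08, exact p = 0.1), and -0.81 in the authors' deposited value table.

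**Figure D4:**
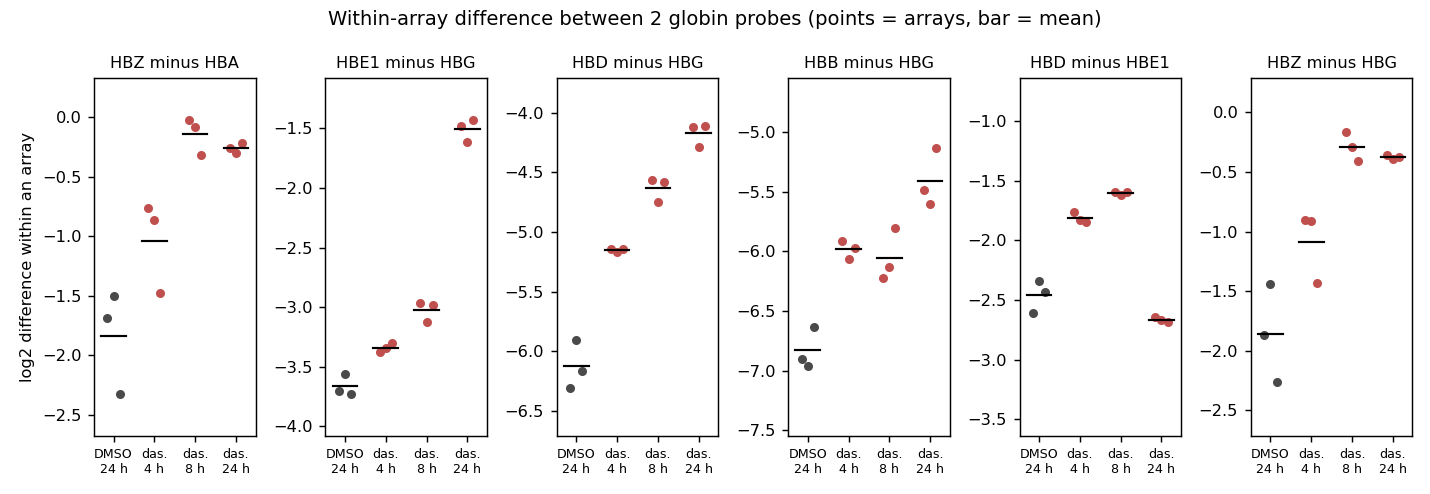
Within-array log2 difference between 2 globin probes (vertical axis, each panel with its own position but the same span) in the 4 groups, for 6 pairs. Points are arrays and bars are group means. HBD minus HBE1 is highest at 8 h and lowest at 24 h, whereas HBE1 minus HBG has its highest values at 24 h, between -1.62 and -1.43.

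Of 5 other globin-family genes, 1 was measured. HBQ1, the theta gene at the end of the alpha cluster, was at 11.55, 11.67 and 11.66 in DMSO, 11.89, 11.92 and 11.77 at 4 h, 12.06, 12.30 and 11.94 at 8 h, and 12.70, 12.67 and 12.80 at 24 h. It rose by 0.47 at 8 h (adjusted p = 0.00819) and by 1.10 at 24 h (SE 0.11, adjusted p = 6.97e-06), with 0.23 at 4 h (adjusted p = 0.251). The 8 h call of HBQ1 was lost with median scaling. Unlike HBZ and the alpha probes, HBQ1 was called from 8 h to 24 h, by 0.62 (adjusted p = 0.00138), and not between 4 h and 8 h, with 0.24 (adjusted p = 0.219). HBM, the mu gene of the same cluster, CYGB and NGB, globins of other tissues, and MB, the muscle oxygen store myoglobin, were detected on 0 of 12 arrays.

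Likeness of pattern was measured as the root mean square difference between the 4 group means, each centred on its own average, over 10200 other genes, which all share these arrays. The genes most like HBE1 were VANGL2, a planar cell polarity protein (0.02), BTBD2 (0.04) and CR1L (0.08). VANGL2 changed by 0.28, 0.73 and 2.24 at 4 h, 8 h and 24 h. Most like HBD were OSBPL7, an oxysterol-binding family member (0.09), CXXC5 (0.11) and TSC22D1 (0.11), and most like HBB were ATOSA (0.03), H3C2, a histone H3 gene (0.05), and ACACB, an acetyl-CoA carboxylase (0.06). For HBZ they were VPS37D (0.11), the receptor tyrosine kinase ERBB3 (0.11) and EHHADH, a peroxisomal enzyme (0.11), and ERBB3 changed by 0.74, 1.82 and 1.40. HBA1 was most like GTF2IRD2B (0.02), MTRES1 (0.02) and CEMIP2 (0.03). For the flat patterns of HBG1, HBG2 and the brighter HBA2 probe the closest genes were UGP2, FARP2 and CD99, each within 0.01. The dimmer HBA2 probe, which rose, was not compared in this way.

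Of 20 regulators known to act at globin loci, 18 were measured, and 11 were higher and 1 lower at 24 h, with a median of 0.54, where 47.8% of all passing probes were called and 23% as higher. At 8 h 8 were higher and 1 lower (24.7% of all probes called, 12.3% higher), and at 4 h 2 were higher and 3 lower (7.97% called, 3.5% higher), with medians of 0.28 and 0.02. The 4 h count of 2 higher became 1 with any DMSO, 4 h or 8 h array left out, with 24 h array B or C left out, with median scaling, without background correction, without the detection filter and in the authors' deposited value table. ZFPM1, the GATA1 cofactor FOG1, rose by 2.03 at 24 h (SE 0.15, adjusted p = 4.5e-07), from 7.83 to 8.18 in DMSO to 9.99 to 10.26. NR2C1, an orphan receptor of the complex that binds the epsilon and gamma promoters, rose by 1.63, LMO2, a bridging factor of the GATA1 and TAL1 complex, by 1.58, and TAL1 itself by 1.55.

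MYB, a factor of progenitor growth that holds back fetal globin, was the regulator that fell at 24 h. Its levels were 12.17, 11.95 and 12.43 in DMSO and 10.88, 10.91 and 10.93 at 24 h, without overlap, a change of -1.28 (SE 0.12, adjusted p = 4.58e-06), and it gave -1.16 at 4 h and -0.77 at 8 h. KLF1, the activator of the adult beta promoter, rose by 0.97 at 24 h (adjusted p = 1.09e-05). GATA1 gave 0.29 at 24 h (SE 0.12, adjusted p = 0.0635). It was called without array A of the 4 h group (adjusted p = 0.0385), without background correction (0.0256) and in the authors' deposited value table (0.0219). NFE2, which binds the beta-globin enhancers, changed by -0.86 at 4 h (adjusted p = 0.000209) and by 0.46 at 24 h (adjusted p = 0.00207, or 0.317 with median scaling). BCL11A and SOX6, repressors of the gamma genes, did not pass the detection rule. KLF1, GATA1 and NFE2 are named besides the naming rule, after their values were seen.

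Of 18 genes listed for haemoglobin assembly and haem supply, 15 were measured, and at 24 h 12 were higher and 1 lower. Their median was 1.47, where 47.8% of all passing probes were called and 23% as higher. The list also holds HMOX1, HMOX2, BLVRA and BLVRB, of haem breakdown, and EIF2AK1, a kinase that curbs translation when haem is low. Of these, BLVRB rose by 1.21 and EIF2AK1 by 0.69 at 24 h. BLVRA was not called, and HMOX1 and HMOX2 did not pass the detection rule. These genes are named besides the naming rule. At 8 h 9 of the measured list genes were higher and 0 lower, with a median of 0.71 (24.7% of all probes called, 12.3% higher). At 4 h 1 was higher, with a median of 0.27 (7.97% called, 3.5% higher). That 4 h count was 2 without 4 h array C and with a replicate block. It was 4 with 1 probe per gene and in the authors' deposited value table, and 5 without background correction. ALAS2, which starts haem synthesis in erythroid cells, rose by 4.89 at 24 h (SE 0.29, adjusted p = 9.65e-08). AHSP, the chaperone of free alpha globin, was at 9.77, 9.81 and 8.99 in DMSO, 10.12, 10.29 and 9.41 at 4 h, 11.18, 11.04 and 10.30 at 8 h, and 13.06, 12.82 and 12.73 at 24 h. It rose by 1.32 at 8 h (adjusted p = 0.00562) and by 3.35 at 24 h (SE 0.29, adjusted p = 1.92e-06), and gave 0.42 at 4 h (adjusted p = 0.462). The mitochondrial iron importer SLC25A37 rose by 3.34 and ALAD, the next enzyme of haem synthesis, by 3.02. FLVCR1, a haem exporter, was the member that fell at 24 h, with a change of -0.67 (SE 0.19, adjusted p = 0.0126), a call that did not survive leaving out DMSO array A (0.0506) or 24 h array C (0.0574).

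**Figure D5:**
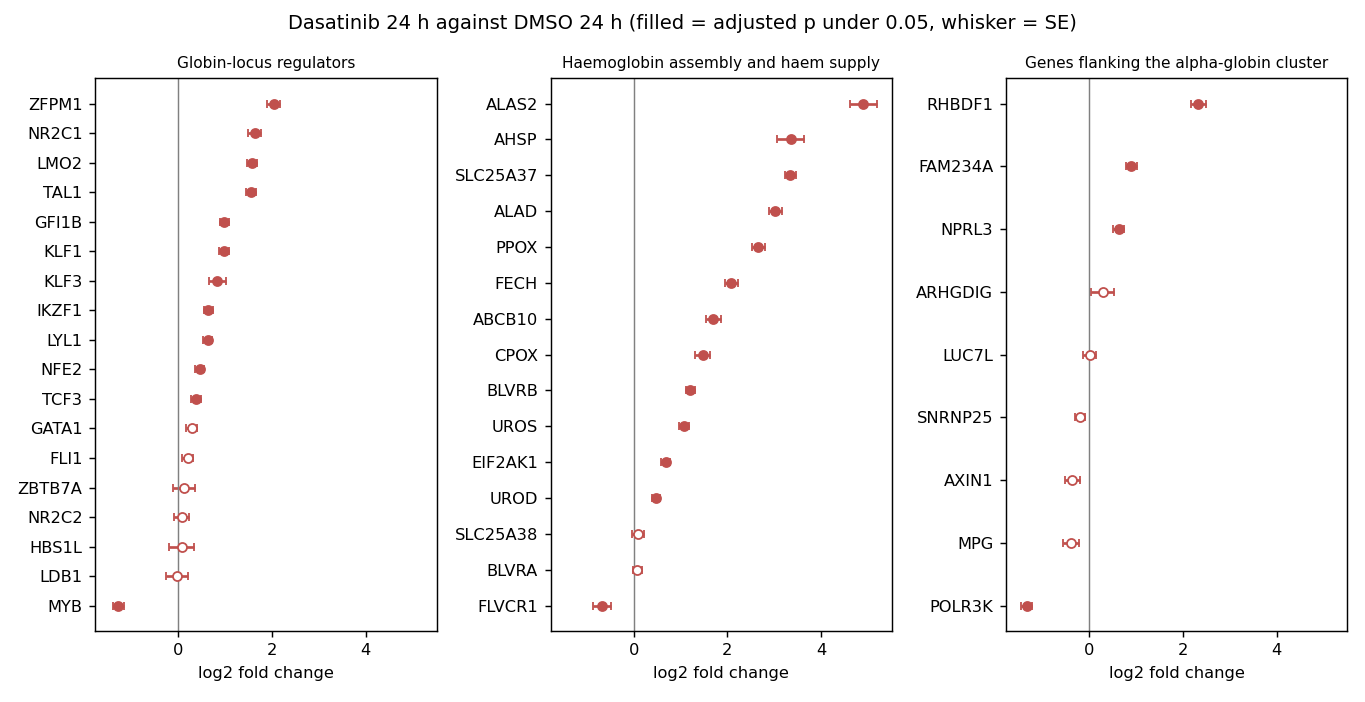
Log2 fold change at 24 h against DMSO 24 h (horizontal axis) of the measured members of 3 gene lists. Filled points were called at an adjusted p under 0.05, open points were not, and whiskers are the SE of the limma fit. ALAS2 at 4.89 and AHSP at 3.35 are farthest to the right, and MYB at -1.28, FLVCR1 at -0.67 and POLR3K at -1.33 are the called genes to the left of 0.

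Of 12 listed symbols of genes that flank the alpha cluster on chromosome 16, 9 were measured. ITFG3, which had no probe under that symbol, is an earlier name of FAM234A, so the list names 1 gene under 2 symbols. At 24 h 3 of the measured genes were higher, 1 lower and 5 not called, with a median of 0.02. Of all passing probes, 47.8% were called and 23% as higher. RHBDF1, an inactive rhomboid protease, rose by 2.33 (SE 0.16, adjusted p = 3.46e-07) and FAM234A by 0.91 (adjusted p = 2.54e-05). NPRL3, whose introns hold the main alpha-globin enhancers, rose by 0.63 (SE 0.11, adjusted p = 0.000532, or 0.121 with median scaling). POLR3K, an RNA polymerase III subunit, fell by 1.33 (adjusted p = 1.84e-06). At 8 h 2 were higher and 2 lower (24.7% of all probes called, 12.3% higher). At 4 h 0 were higher and 1 lower (7.97% called, 3.5% higher). The count of lower genes at 24 h was 2 without 8 h array B or 24 h array B, with median scaling and without background correction. At 8 h it was 1 without DMSO array B or C, 8 h array A or C, or the detection filter. The higher count at 8 h was 1 without 8 h array A and with median scaling. The 1 lower gene at 4 h was lost without DMSO array B or C, 4 h array A or B, or the detection filter.

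Markers of the line and of other cell types were read from the same arrays, where 47.8% of all passing probes were called at 24 h and 23% as higher. The erythroid markers TFRC, EPOR, GATA1 and KLF1 were detected on all arrays, and EPOR, the erythropoietin receptor, rose by 2.36 at 24 h. Of 6 megakaryocyte markers 2 passed and none was called at 24 h, with ITGB3 and PF4 detected on 0 arrays. Their summed signal was 928 to 1137 intensity units in DMSO, 920 to 1115 at 4 h, 911 to 1088 at 8 h and 928 to 1090 at 24 h. Among 6 granulocyte and monocyte markers 2 passed, and LYZ changed by -1.57 at 24 h, while MPO, ELANE and CSF1R were detected on 0 arrays. Summed over that list, the signal was 1052 to 1171 in DMSO, 994 to 1343 at 4 h, 948 to 1111 at 8 h and 885 to 956 at 24 h. CD3D, the 1 of 5 lymphoid markers that passed, changed by -3.35 at 24 h (SE 0.12, adjusted p = 2.48e-09), and CD3E was detected on 0 arrays. The lymphoid sum was 1403 to 1809 in DMSO, 1239 to 1889 at 4 h, 1055 to 1096 at 8 h and 626 to 695 at 24 h. Of 4 fibroblast and epithelial markers 3 passed and all 3 fell at 24 h, with changes of -2.30 for COL1A2, -0.92 for KRT8 and -0.40 for EPCAM. Their sum was 4947 to 7095 in DMSO, 5199 to 8080 at 4 h, 4629 to 5872 at 8 h and 2815 to 3770 at 24 h. The part of these markers in the globin values was not tested.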

How the data were processed

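Gene expression was measured on 12 Illumina BeadChip arrays of K562 RNA. The deposited signals are in units of intensity, 1 per probe and array, with no background subtraction or normalization per the file headers, and each is paired with a detection p-value per the file headers. The authors also deposited a value table on a log2-like scale; how it was made is not stated in any source used here, and it served as an alternative. Signal columns were assigned to groups by name, with BMS read as dasatinib, and their letters A, B and C matched replicates 1, 2 and 3 of the value table at a rank correlation of 1.

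Signals were processed with neqc in limma 3.58.1 (R 4.3.3, statmod 1.5.0), which took the negative-control mean and variance from the detection p-values, an offset of 16, quantile normalization and log2. Background correction widens, and the offset narrows, fold changes of dim probes such as HBB. Of 47314 probes, 30108 had 1 gene symbol in the platform annotation, 8 several and 17198 none. The 17625 probes detected (p under 0.05) on every array of 1 or more groups were fitted with 1 mean per group (8 residual and 3.99 prior degrees of freedom), and two-sided moderated p-values were adjusted over them by the Benjamini-Hochberg method for each of 6 comparisons. The fit was tested on simulated data. For a listed gene with several passing probes, the probe with the highest mean was used. Precision is limited by the number of arrays.

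The members and gene lists were chosen with earlier results of these data known. Named genes were all members, the 4 called members of each list with the largest 24 h change, any that moved against its list, and the 3 genes nearest to each member in pattern. Alternatives were no background correction, median scaling, the value table, no detection filter, 1 probe per gene, a replicate block and leaving out each array.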

Additional observations from a re-analysis of the deposited data

Results flagged for a closer look

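Changes of a globin probe between dasatinib times, tested in the same fit, were called for 13 of the probe and time combinations. They are differences between exposures within the drug arm, and no vehicle was analysed here at 4 h or 8 h. From 4 h to 8 h, HBZ rose by 0.92 (adjusted p = 0.0240), HBD by 0.64 (adjusted p = 0.00398), the dimmer HBA2 probe by 0.48 (adjusted p = 0.0230), HBE1 by 0.44 (adjusted p = 0.0245) and HBA1 by 0.42 (adjusted p = 0.0341). In this step 5 of 9 globin probes were called, all higher, against 7.46% of all passing probes called and 3.84% called higher.

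From 8 h to 24 h, HBE1 rose by 1.48 (adjusted p = 1.81e-06), HBB by 0.61 (adjusted p = 0.00684) and HBD by 0.42 (adjusted p = 0.0102), so that 3 of 9 were called where 30.7% of all passing probes were. None of the HBZ, HBA1 and HBA2 probes was called in this step. The changes were -0.12 for HBZ, -0.08 for HBA1 and -0.21 for the dimmer HBA2 probe (adjusted p = 0.176). Whether signal strength limits these steps was not tested. From 4 h to 24 h, HBE1 rose by 1.92 (adjusted p = 1.03e-07), HBD by 1.06 (adjusted p = 1.03e-05), HBZ by 0.79 (adjusted p = 0.0117), HBB by 0.66 (adjusted p = 0.00286) and HBA1 by 0.34 (adjusted p = 0.0236), which makes 5 of 9 against 39.2% of all passing probes.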

How the results depend on the processing

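All calls of the 9 globin probes at 8 h and 24 h against DMSO held under the alternatives run, except HBE1 at 8 h with median scaling. HBQ1, which is not among these probes, also lost its 8 h call with median scaling. Over 966 probe values under an alternative, 917 kept their side of the threshold, 41 lost the call, 8 gained it and 0 reversed a call, while 20 values that were not called changed sign. The count of called globin probes at 4 h against DMSO was 1 with median scaling, in place of 3, and the count over all probes was 864 in place of 1404. At 8 h against 4 h it was 1 with median scaling (486 called of all probes, in place of 1314) and 3 without the detection filter (914), in place of 5. With 1 array left out it ranged from 1 to 5, and the count over all probes from 722 to 1251. At 24 h against 4 h it ranged from 3 to 6 with 1 array left out, and the count over all probes from 6026 to 6782, in place of 6905. The lowest globin count came without array C of the 4 h group. HBZ from 4 h to 24 h was not called without that array (adjusted p = 0.0545). HBA1 from 4 h to 24 h was lost without 24 h array A (0.0666) or C (0.0812) and without 4 h array A (0.0506) or C (0.0898). It was also lost with median scaling (0.173). The cause was not tested. Across settings the 24 h change of HBB ran from 0.78 to 1.55, that of HBD from 1.40 to 2.06, that of HBE1 from 1.99 to 2.24 and that of HBZ from 1.27 to 1.71. HBG2 ran from -0.04 to 0.10, with no call.

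The letters A, B and C were not taken to pair the arrays. Over all passing probes, deviations of same-letter arrays from their group means correlated at -0.09 to 0.15 over 18 pairs of arrays, 3 of them over 0.1, although single genes may share a letter effect. With the letter as a block, 4 globin probes were called at 4 h (1413 of all probes), where HBZ passed (adjusted p = 0.0233). At 24 h the block gave 6 (8544 of all probes). The HBA1 step from 4 h to 8 h was lost with the block (adjusted p = 0.0515), which left 4 of 5 called (1375 of all probes). Among the listed genes at 24 h, 759 values under an alternative were unchanged in call, 8 lost it and 7 gained it. At 4 h the count of higher genes in the haemoglobin assembly and haem supply list, 1, was 5 without background correction. Few arrays, the array maximum for the brightest probes and the background for HBB limit these values.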

Other observations

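Array C stood lowest for HBZ, AHSP and ALAS2 in most groups, but not for all erythroid transcripts. HBZ was lowest on array C in DMSO (12.11), at 4 h (12.95) and at 8 h (14.07), and AHSP was lowest on array C in DMSO (8.99), at 4 h (9.41), at 8 h (10.30) and at 24 h (12.73). ALAS2 was at 8.94, 8.86 and 8.05 on DMSO arrays A, B and C, at 9.35, 9.51 and 8.61 at 4 h, at 10.81, 10.58 and 9.99 at 8 h, and at 13.72, 13.42 and 13.40 at 24 h. HBD was lowest on array C in DMSO (8.21) and at 4 h (9.24), shared the lowest level at 8 h (9.90) and was highest there at 24 h (10.40). HBB was highest on array C at 8 h (8.68) and at 24 h (9.37). SLC25A37 was lowest on array C in DMSO (8.49) and at 8 h (9.78) but highest on it at 4 h (9.17) and 24 h (12.05). These genes were singled out after their values were seen, and the labels do not say what the letters mark.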
